A study of Mus musculus with 9 samples.

Results

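The genes described here are 10 known markers of the trophectoderm and of simple epithelia, taken by symbol from the 38293 genes of the count table. They are the transcription factors Tfap2c, Gata3, Hand1, Elf5, Elf3 and Tead4 and the keratins Krt7, Krt8, Krt18 and Krt19. RNA-seq was carried out on E14, a mouse embryonic stem cell line of strain 129/Ola, in 3 culture states with 3 biological replicates each. In mESC-2i, labelled naive, cells grew in N2B27 medium with the MEK inhibitor PD0325901 at 1 µM, the GSK3 inhibitor CHIR99021 at 3 µM and leukaemia inhibitory factor (LIF) at 10 ng/mL. In mESC-ser, labelled primed, cells grew on gelatin in DMEM with 15% foetal bovine serum and LIF at 10 ng/mL, without the inhibitors. EpiLC (epiblast-like cells) were made from naive mESC on fibronectin in N2B27 with activin A at 20 ng/mL, bFGF at 12 ng/mL and 1% KSR, with no LIF listed. The labels give no duration for the EpiLC culture. All libraries came from the same line, so the p-values measure the spread between cultures of that line. The states differ in medium and, for EpiLC and mESC-ser, in the coated surface, and these cannot be told apart.

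The trophectoderm is the outer epithelium of the blastocyst and gives rise to the trophoblast of the placenta, while embryonic stem cells come from the inner cell mass. In the outer cells TEAD4, with its cofactors YAP1 and WWTR1, acts near the top of a hierarchy that includes CDX2, GATA3, TFAP2C and EOMES, and ELF5 maintains trophoblast stem cells. Simple epithelia, trophectoderm among them, build their cytoplasmic filaments from equal parts of a type II keratin (KRT7, KRT8) and a type I keratin (KRT18, KRT19).

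The libraries held 7187576 to 16829549 counts, and 19288 to 21588 genes had at least 1 count. Levels are given in CPM, the counts of a gene set against the total of its library, with totals scaled by the trimmed mean of M-values (TMM). Pluripotent cell markers (Pou5f1, Sox2, Nanog, Zfp42, Dppa5a) summed to 2498 to 3306 CPM for mESC-2i, 2056 to 2356 CPM for mESC-ser and 1878 to 1971 CPM for EpiLC. The placental genes Tpbpa and Prl3d1 had no count in any library. In bulk RNA, fewer cells of a type and less RNA per cell cannot be told apart.

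The marker genes did not move as a block between the states. In mESC-ser versus mESC-2i, the keratins Krt8, Krt18 and Krt19 rose by 2.98-fold, 8.28-fold and 4.2-fold (n = 3 libraries a state), Gata3 and Hand1 rose with them, and Tfap2c, Elf3 and Tead4 fell. In EpiLC, Tfap2c, Gata3, Elf3, Tead4 and Krt8 fell versus both mESC states, whereas Krt18 was 5.12-fold above its mESC-2i level. Elf5 was barely detected anywhere. The plot of levels by library shows the spread behind these statements.

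**Figure D1:**
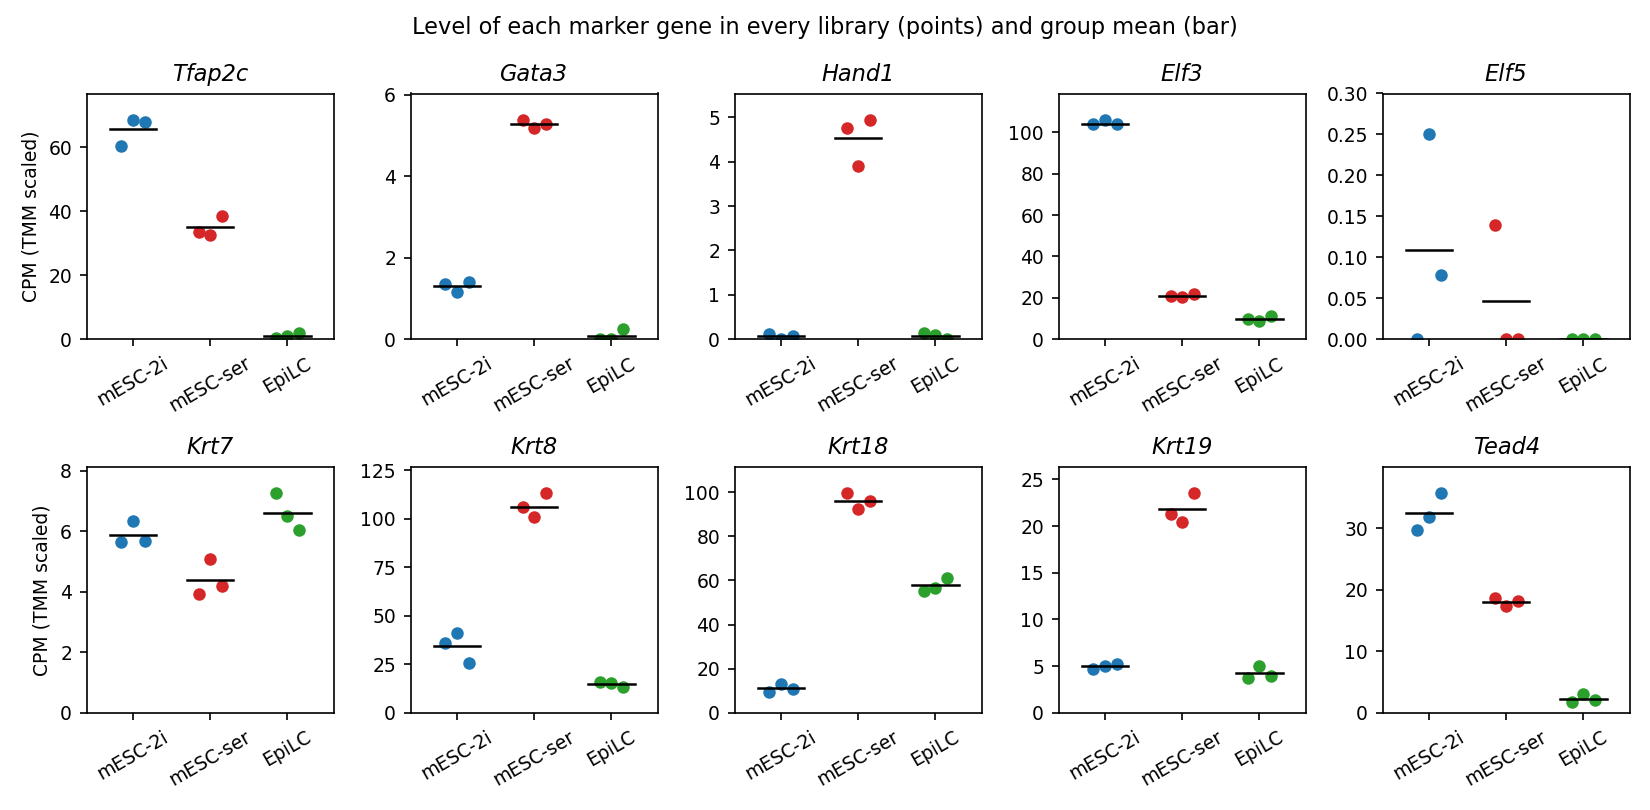
Level of each of the 10 marker genes (CPM scaled by TMM, y axis from 0, a separate scale per gene) in mESC-2i, mESC-ser and EpiLC. Points are the 3 libraries of each state and bars their mean. Krt8, Krt18, Krt19, Gata3 and Hand1 were highest in mESC-ser, and Tfap2c, Elf3 and Tead4 were highest in mESC-2i.

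A gene was called at an edgeR adjusted p under 0.05 (Benjamini-Hochberg, over all genes tested) and an absolute log2 fold change over 0.5. Of the 10 genes, 9 passed the filter on low counts in mESC-ser versus mESC-2i, of which 5 were called higher and 3 lower. Among the 15728 genes tested in that comparison, 56.2% were called, 25.9% higher and 30.3% lower. In EpiLC versus mESC-2i, 8 passed, of which 1 was called higher and 5 lower, where 69.8% of 15378 genes were called, 32% higher and 37.8% lower. In EpiLC versus mESC-ser, 9 passed, of which 1 was called higher and 8 lower, where 73.3% of 15345 genes were called, 35.5% higher and 37.8% lower. The calls thus stand against a background in which most genes tested were called. Hand1, and Gata3 in the comparisons with EpiLC, passed the filter through the higher state alone and are included in these counts.

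The median log2 fold change of the marker genes that passed was 1.58 for mESC-ser versus mESC-2i, where that of all genes tested was -0.04. It was -2.31 for EpiLC versus mESC-2i and -2.75 for EpiLC versus mESC-ser, beside -0.11 and -0.07 over all genes. The CPM ranges of the compared states did not overlap for 9, 6 and 9 of the 10 genes in these comparisons, where genes that failed the filter are included. Of all genes that passed it, 70.7%, 81.8% and 85.7% did not overlap, a different base. The comparisons share libraries, so their values are given side by side and not as separate evidence. Scaling by total counts instead of TMM moved the share of higher genes among all calls from 45.9% to 33.7% in EpiLC versus mESC-2i, and from 48.4% to 37.4% in EpiLC versus mESC-ser.

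**Figure D2:**
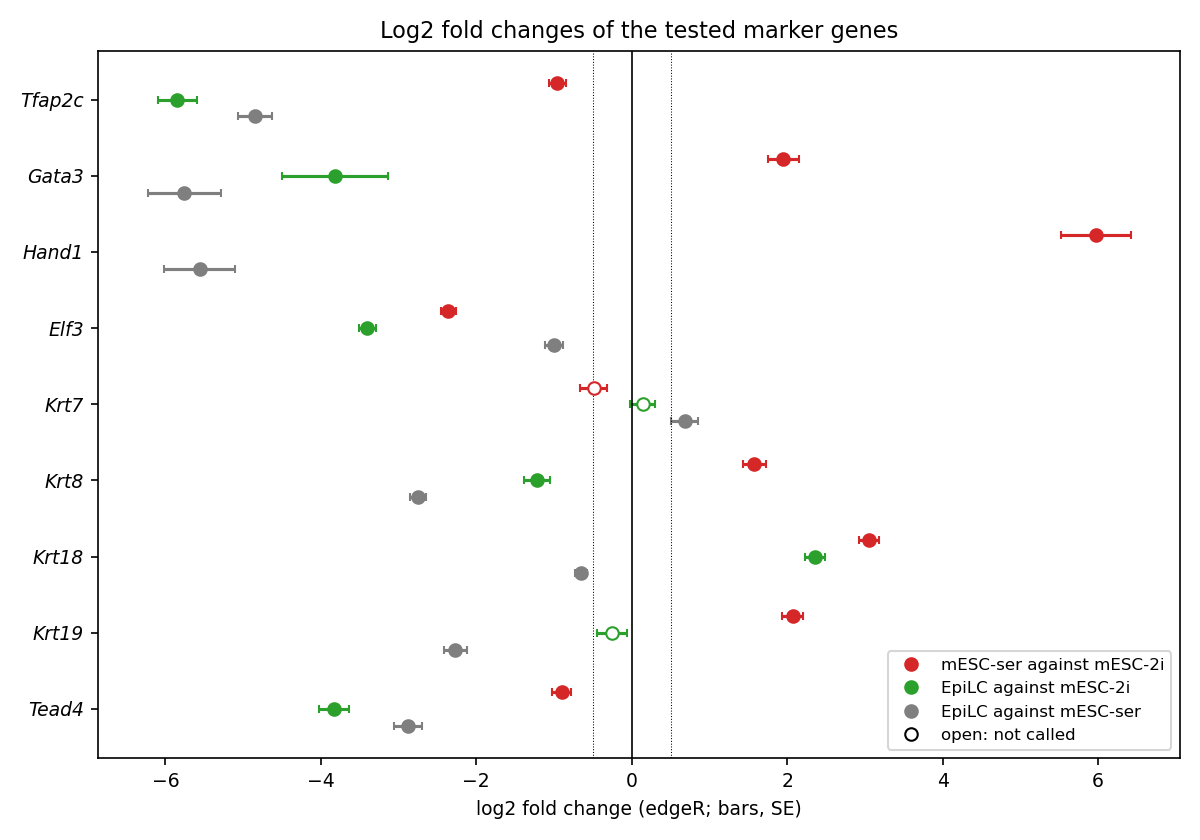
Log2 fold change of 9 marker genes in the 3 comparisons of states (edgeR, x axis), with bars for the standard error. Filled points were called, open points were not, and dotted lines mark the fold threshold of 0.5 on either side of 0. Elf5, and Hand1 for EpiLC versus mESC-2i, had too few counts to be tested. The Gata3 and Hand1 points with wide bars rest on 2 counts in the lower state.

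Tfap2c encodes AP-2 gamma, a factor of trophoblast and of germ cell precursors. Its level was 60.2, 68.5 and 67.9 CPM for mESC-2i, 33.6, 32.7 and 38.6 CPM for mESC-ser, and 0.403, 1.08 and 1.88 CPM for EpiLC. The 3 states did not overlap, with mESC-2i highest and EpiLC lowest. The log2 fold change was -0.96 (SE 0.11, edgeR adjusted p = 2.66e-05) in mESC-ser versus mESC-2i, a 1.95-fold lower level. It was -5.85 (SE 0.25, adjusted p = 1.21e-08) in EpiLC versus mESC-2i and -4.85 (SE 0.22, adjusted p = 3.68e-12) in EpiLC versus mESC-ser. The EpiLC libraries held 3, 10 and 15 counts of Tfap2c, so its level there is imprecise, while 490 to 871 counts stood behind the mESC-2i values.

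Tead4, the TEAD factor of the outer cells of the early embryo, followed the same order of states. It stood at 29.7, 31.9 and 35.7 CPM for mESC-2i, at 18.7, 17.3 and 18.2 CPM for mESC-ser and at 1.74, 3.04 and 2.01 CPM for EpiLC. No library of a state reached the range of another. The log2 fold change was -0.90 (SE 0.12, edgeR adjusted p = 6.61e-05) in mESC-ser, and -3.83 (SE 0.19, adjusted p = 3.95e-08) in EpiLC, each versus mESC-2i. Between EpiLC and mESC-ser it was -2.88 (SE 0.18, adjusted p = 1.66e-10).

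Elf3 encodes an ETS factor of simple epithelia. It was the marker transcription factor with the most counts in mESC-2i, at 104, 106 and 104 CPM, against 21.1, 20.4 and 21.9 CPM for mESC-ser and 9.93, 8.90 and 11.2 CPM for EpiLC. The replicates of each state lay close together and the states were far apart. The fall was 5.13-fold in mESC-ser (log2 -2.36, SE 0.10, edgeR adjusted p = 3.91e-08) and 10.6-fold in EpiLC (log2 -3.40, SE 0.11, adjusted p = 2.56e-09), each versus mESC-2i. EpiLC were also below mESC-ser (log2 -1.0, SE 0.12, adjusted p = 8.07e-07). Over 162 bases, an exon of Elf3 overlaps the opposite-strand gene Gm26642, and the strand setting of the counting was not stated.

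Gata3 encodes a GATA factor that acts in the outer cells of the embryo beside CDX2. It had 1.35, 1.17 and 1.40 CPM for mESC-2i, 5.39, 5.18 and 5.28 CPM for mESC-ser, and 0, 0 and 0.251 CPM for EpiLC. It was thus highest in mESC-ser, where Tfap2c and Tead4 were below their mESC-2i level, and at 2 counts in all in EpiLC. The rise in mESC-ser was 3.88-fold (log2 1.95, SE 0.20, edgeR adjusted p = 1.58e-05). With 2 counts in EpiLC, the level there was 16.1-fold lower than in mESC-2i (95% counting interval 4.18 to 137) and 65.1-fold lower than in mESC-ser (17.8 to 541), intervals that cover counting error only. The fitted log2 fold changes, -3.82 (SE 0.68, adjusted p = 0.000391) and -5.76 (SE 0.47, adjusted p = 5.56e-09), depend on single EpiLC libraries. Without EpiLC replicate 2 they were -3.22 and -5.15. Without EpiLC replicate 3, which held both counts, they were -6.71 and -8.97, values that then depend on the prior count. In both comparisons with EpiLC, Gata3 passed the filter through the mESC libraries alone, so its direction there was set by the filter. Of the 50-base stretches of Gata3 transcripts, 2.22% also occur in overlapping annotated genes.

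Hand1, a bHLH factor of trophoblast giant cells and of extraembryonic mesoderm, was detected at more than a trace only in mESC-ser among the 3 states. Its level there was 4.76, 3.90 and 4.94 CPM, against 0.123, 0 and 0.078 CPM for mESC-2i and 0.134, 0.108 and 0 CPM for EpiLC. The 3 mESC-ser libraries held 68, 46 and 86 counts, while no other library held more than 1. The ratio of mESC-ser to mESC-2i was 75.8 (95% counting interval 20.7 to 630, from 200 against 2 counts), and EpiLC were 56.6-fold below mESC-ser (15.5 to 471). The edgeR adjusted p was 1.62e-06 for the first and 6.12e-09 for the second of these comparisons. Hand1 passed the filter on low counts in both through the mESC-ser libraries alone. Its direction was thus set by the filter, and these p-values add no separate support. The fitted log2 fold change in mESC-ser versus mESC-2i was 5.97 (SE 0.45), and 5.38 without mESC-2i replicate 2. No fold is given between EpiLC and mESC-2i, since either state had 2 counts in all.

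Elf5, the ETS factor of trophoblast stem cells and of mammary epithelium, held 4 counts over the mESC-2i libraries, 2 over the mESC-ser libraries and 0 over the EpiLC libraries. A count of 0 for EpiLC allows a level of up to 0.122 CPM. Elf5 failed the filter on low counts in all 3 comparisons, and a difference between states was not detectable at this depth.

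The other trophoblast genes on a list of 14 were called in both directions in every comparison. Of 11 tested in mESC-ser versus mESC-2i, 3 were called higher and 4 lower, with a median log2 fold change of 0.27. Of 9 tested in EpiLC versus mESC-2i, 2 were called higher and 5 lower (median -0.69), and of 11 tested in EpiLC versus mESC-ser, 1 was called higher and 9 lower (median -1.20). Beside these counts, 56.2%, 69.8% and 73.3% of all genes tested were called in the 3 comparisons. Cdx2, the caudal-type factor that defines the trophectoderm, stood at 15.5 ± 1.49 CPM (SD, n = 3) for mESC-2i, 2.44 ± 0.375 CPM for mESC-ser and 0.279 ± 0.242 CPM for EpiLC. Its log2 fold change was -2.70 (SE 0.17) in mESC-ser and -5.72 (SE 0.36) in EpiLC, each versus mESC-2i. Cdx2 thus had the order of states of Tfap2c and Tead4, not that of Gata3 and Hand1. P-cadherin, encoded by Cdh3, rose in mESC-ser to 38.8 ± 4.48 CPM from 8.45 ± 0.845 CPM for mESC-2i (log2 2.14, SE 0.14). Gcm1, a factor of the labyrinth of the placenta, was at 1.65 ± 0.0643 CPM for mESC-ser and at 0.0669 ± 0.0621 CPM for mESC-2i. Ascl2, a trophoblast and Wnt-responsive bHLH factor, was called higher in EpiLC than in mESC-2i (7.63 ± 0.626 against 1.79 ± 0.934 CPM).

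Among the paralogs of the marker factors, 4 of 12 tested were called higher and 4 lower in mESC-ser versus mESC-2i (median log2 fold change -0.10), 3 of 11 higher and 8 lower in EpiLC versus mESC-2i (median -2.68), and 2 of 12 higher and 9 lower in EpiLC versus mESC-ser (median -1.78). The share called over all genes tested was 56.2%, 69.8% and 73.3%. The AP-2 genes Tfap2a and Tfap2b shared the order of Tfap2c. Tfap2a fell from 16.9 ± 3.26 CPM for mESC-2i to 1.08 ± 0.252 CPM for EpiLC (log2 -3.95, SE 0.25). Tfap2b was at 10.4 ± 1.48 CPM for mESC-2i, at 0.113 ± 0.0276 CPM for mESC-ser and at 0 counts in every EpiLC library. Tfap2e had the opposite order, at 0.279 ± 0.246 CPM for mESC-2i, 0.964 ± 0.193 CPM for mESC-ser and 2.34 ± 0.368 CPM for EpiLC, and was called higher in EpiLC versus mESC-2i (log2 3.01, SE 0.54) and versus mESC-ser (1.31, SE 0.28). The GATA paralogs did not all follow Gata3: Gata2 fell in EpiLC (log2 -3.16, SE 0.28, versus mESC-2i) and was not called in mESC-ser versus mESC-2i (log2 -0.22, SE 0.18).

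Tead4 and its TEAD paralogs had different orders of states. Tead1 was at 29 ± 10.9 CPM for mESC-2i, 163 ± 15.4 CPM for mESC-ser and 2.58 ± 0.424 CPM for EpiLC, so that it rose where Tead4 fell (log2 2.43, SE 0.22, edgeR adjusted p = 4.99e-06, in mESC-ser versus mESC-2i). Tead2 was called higher in EpiLC than in either mESC state (log2 1.53, SE 0.09, versus mESC-2i, and 1.71, SE 0.08, versus mESC-ser). Tead3 was called higher in mESC-ser (log2 0.96, SE 0.23) and in EpiLC (log2 1.08, SE 0.22) than in mESC-2i.

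Hippo kinases and scaffolds restrain YAP1 and WWTR1, the cofactors through which TEAD proteins activate transcription. Of 18 genes of this pathway, 11 were called higher and 1 lower in mESC-ser versus mESC-2i, with a median log2 fold change of 0.70. In EpiLC, 4 were called higher and 13 lower versus mESC-2i (median -1.15), and 1 higher and 15 lower versus mESC-ser (median -1.46). All genes tested were called at shares of 56.2%, 69.8% and 73.3% in these comparisons. The angiomotin gene Amot rose in mESC-ser from 4.41 ± 0.952 to 28 ± 1.54 CPM, and Vgll4, which encodes a TEAD corepressor, fell in EpiLC from 22.2 ± 1.16 CPM for mESC-2i to 0.916 ± 0.545 CPM. Yap1 was called higher in mESC-ser (log2 0.65, SE 0.09) and just past the fold threshold in EpiLC (log2 0.51, SE 0.08), each versus mESC-2i. Wwtr1 was called lower in EpiLC, by log2 -1.32 (SE 0.10) versus mESC-2i and -0.78 (SE 0.09) versus mESC-ser, and was not called in mESC-ser versus mESC-2i (log2 -0.50, SE 0.10).

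Of 6 genes known as targets of YAP and TEAD proteins, Ankrd1 failed the filter in each comparison. The other 5 (Ccn1, Ccn2, Ajuba, Axl, Amotl2) were called higher in mESC-ser versus mESC-2i, with a median log2 fold change of 1.70. In EpiLC, 1 was called higher and 4 lower versus mESC-2i (median -1.17), and 0 higher and 4 lower versus mESC-ser (median -3.43). The shares called over all genes tested stand at 56.2%, 69.8% and 73.3% here too. The matricellular genes Ccn2 and Ccn1 stood at 123 ± 2.38 and 77.5 ± 2.24 CPM for mESC-ser, against 19 ± 0.608 and 12.9 ± 1.30 CPM for mESC-2i and 8.61 ± 1.40 and 5.77 ± 0.695 CPM for EpiLC. The targets as a group were thus highest in mESC-ser. Tead1 was also highest in mESC-ser and Tead4 in mESC-2i, and a link of either gene to the targets was not tested. Amotl2 stands in both the pathway and the target list. Both lists were chosen with results of these libraries known, so their counts describe them and are not independent evidence of a direction.

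**Figure D3:**
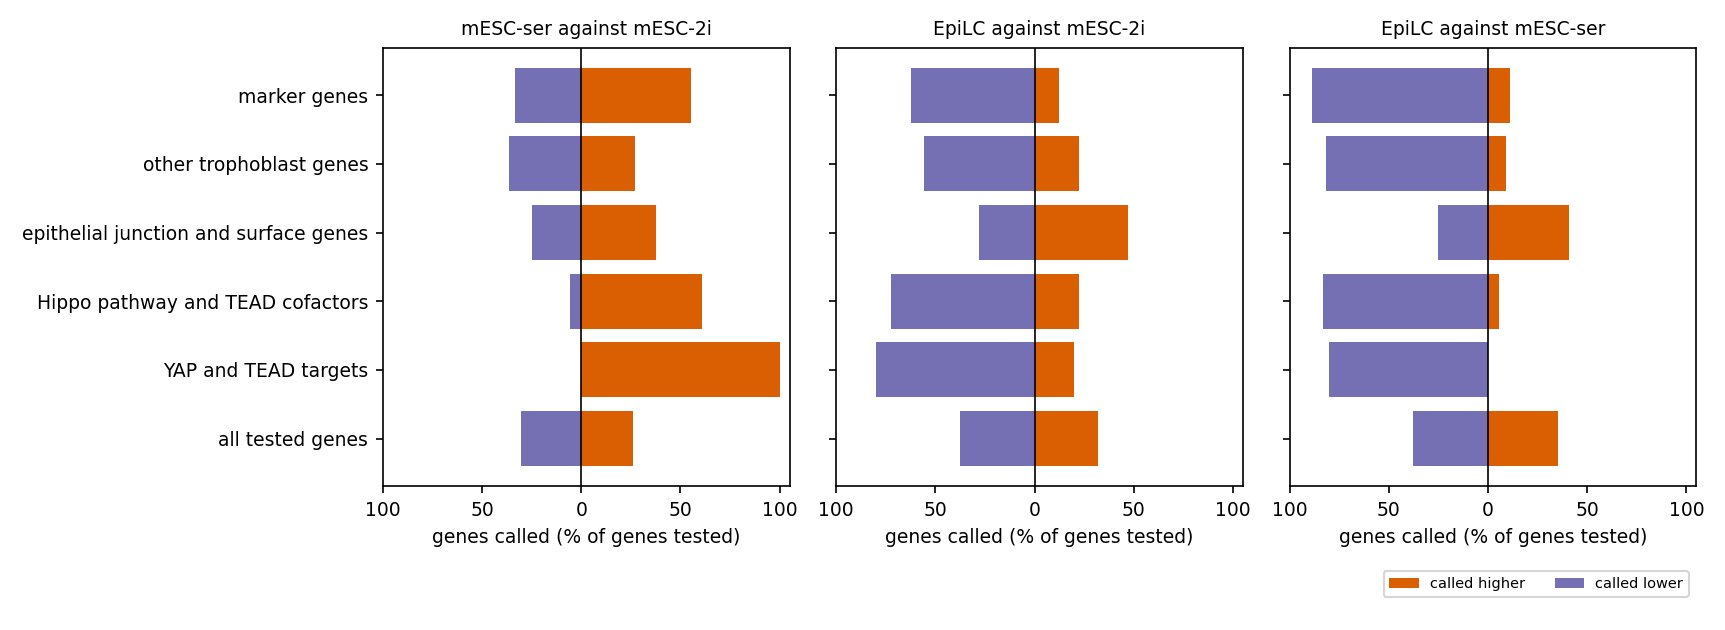
Share of genes called higher (to the right) and lower (to the left), in % of the genes tested, for the marker genes, 4 related lists and all tested genes, in each comparison of states. In mESC-ser versus mESC-2i all 5 tested YAP and TEAD targets were called higher, and in EpiLC versus mESC-ser 15 of 18 Hippo pathway genes and 8 of 9 marker genes were called lower, beside 37.8% of all tested genes.

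The 4 keratins did not share a single order of states. In mESC-ser versus mESC-2i, Krt8, Krt18 and Krt19 rose and Krt7 was not called, and in EpiLC versus mESC-2i Krt18 rose while Krt8 fell. Krt8 and Krt18 encode a type II and a type I keratin that commonly pair with each other in simple epithelia. Their genes lie head to head on mouse chromosome 15 of GRCm38, Krt8 at chr15:101996698-102004482 on the minus strand and Krt18 at chr15:102028180-102032027 on the plus strand, with 23697 bp between their starts. Krt7 lies on the same chromosome, at chr15:101411043-101430313 on the plus strand, and Krt19 at chr11:100140810-100148665 on the minus strand.

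The 250 bases before the RefSeq start (GRCm38.p6) are shown for Krt8 and Krt18, since these partner genes diverged, and for Krt7, the keratin that changed least. The gene positions and the gap above are those of GENCODE, whose starts differ from the RefSeq starts. The stretches of Krt8 and Krt18 run past the GENCODE start into the gene, and that of Krt7 lies wholly within its GENCODE span. Each reads 5′ to 3′ on the strand of its gene, and capitals mark matches to the motifs searched on both strands. The motif of the AP-2 family was written as GCCNNNGGC and that of GATA factors as AGATAA. The motif of ETS factors was written as CCGGAA, that of TEAD factors as GGAATG, the TATA box as TATAAA and the GC box as GGGCGG.
Krt8 (chr15:102004343-102004592, minus strand): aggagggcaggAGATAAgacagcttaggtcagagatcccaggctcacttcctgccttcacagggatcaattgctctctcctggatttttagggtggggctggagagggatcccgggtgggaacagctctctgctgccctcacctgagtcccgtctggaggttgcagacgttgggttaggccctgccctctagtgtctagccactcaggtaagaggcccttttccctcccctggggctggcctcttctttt
Krt18 (chr15:102027966-102028215, plus strand): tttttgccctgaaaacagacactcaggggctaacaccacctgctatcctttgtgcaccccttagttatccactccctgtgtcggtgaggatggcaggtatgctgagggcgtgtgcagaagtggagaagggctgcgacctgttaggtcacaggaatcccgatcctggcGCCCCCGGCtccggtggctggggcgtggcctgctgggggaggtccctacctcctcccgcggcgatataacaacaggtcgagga
Krt7 (chr15:101412153-101412402, plus strand): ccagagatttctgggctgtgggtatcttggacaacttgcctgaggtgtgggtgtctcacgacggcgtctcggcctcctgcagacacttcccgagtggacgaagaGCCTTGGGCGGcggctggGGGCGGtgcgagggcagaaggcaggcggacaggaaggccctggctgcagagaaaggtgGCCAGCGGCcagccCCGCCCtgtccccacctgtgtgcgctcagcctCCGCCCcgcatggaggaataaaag

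The 3 stretches differ in the motifs they hold. That of Krt8 had 1 GATA match, which begins 239 bases before the start, and that of Krt18 had 1 AP-2 match, 83 bases before it. That of Krt7 had 2 AP-2 matches, the first of which overlaps a GC box, and 4 GC boxes in all. Over 32851 RefSeq promoter stretches of this length, 13.7% held a AP-2 match, 9.99% a GATA match, 12% an ETS match, 12.6% a TEAD match, 12.4% a TATA box and 32.7% a GC box. The stretch of Krt8 held 3 CpG dinucleotides, that of Krt18 held 12 and that of Krt7 held 16, where the median over all stretches was 6. A match describes the letters in this window and is not a measured site.

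Krt8 stood at 36.2, 40.9 and 25.9 CPM for mESC-2i, at 106, 101 and 113 CPM for mESC-ser and at 16.0, 15.6 and 13.1 CPM for EpiLC. The states did not overlap, with the widest spread in mESC-2i, where replicate 3 was lowest. Krt8 rose 2.98-fold in mESC-ser (log2 1.58, SE 0.15, edgeR adjusted p = 9.49e-06) and fell 2.33-fold in EpiLC (log2 -1.22, SE 0.17, adjusted p = 7.86e-05), each versus mESC-2i. EpiLC were 6.73-fold below mESC-ser (log2 -2.75, SE 0.10, adjusted p = 3.41e-13). Of the 50-base stretches of Krt8 transcripts, 29.7% also occur in another annotated gene, mostly in the pseudogene Krt8-ps, which was not analysed here, so the counts of Krt8 are uncertain to that extent.

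Krt18 stood at 9.46, 13.1 and 10.7 CPM for mESC-2i, at 99.5, 92.3 and 96.1 CPM for mESC-ser and at 55.4, 56.8 and 61.1 CPM for EpiLC. It was thus lowest in mESC-2i, and EpiLC lay between the mESC states. The rise over mESC-2i was 8.28-fold in mESC-ser (log2 3.05, SE 0.13, edgeR adjusted p = 4.05e-08) and 5.12-fold in EpiLC (log2 2.36, SE 0.13, adjusted p = 6.74e-08). EpiLC were 1.57-fold below mESC-ser (log2 -0.65, SE 0.08, adjusted p = 1.42e-06). Krt18 was the marker gene called higher in EpiLC than in mESC-2i. Of its 50-base stretches, 0.72% occur in another annotated gene.

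Krt19, a type I keratin of ducts and trophectoderm, stood at 4.67, 5.00 and 5.22 CPM for mESC-2i, at 21.3, 20.4 and 23.5 CPM for mESC-ser and at 3.76, 4.99 and 3.89 CPM for EpiLC. EpiLC replicate 2 lay within the mESC-2i range, and both states lay well below mESC-ser. The rise in mESC-ser over mESC-2i was 4.2-fold (log2 2.07, SE 0.14, edgeR adjusted p = 6.79e-07). EpiLC were 4.82-fold below mESC-ser (log2 -2.27, SE 0.15, adjusted p = 3.04e-10). Between EpiLC and mESC-2i the log2 fold change was -0.25 (SE 0.19, adjusted p = 0.255) and was not called.

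Krt7, a type II keratin of glandular epithelia and trophoblast, changed least. It stood at 5.65, 6.34 and 5.69 CPM for mESC-2i, at 3.92, 5.09 and 4.19 CPM for mESC-ser and at 7.25, 6.51 and 6.03 CPM for EpiLC. The mESC-ser libraries were lowest, and the ranges of EpiLC and mESC-2i overlapped. The difference was called only between EpiLC and mESC-ser (log2 0.68, SE 0.17, edgeR adjusted p = 0.00169), and not under scaling by total counts, where it was 0.34. It was -0.49 (SE 0.17, adjusted p = 0.0283) in mESC-ser versus mESC-2i, just short of the fold threshold, and 0.14 (SE 0.16, adjusted p = 0.445) in EpiLC versus mESC-2i, which turned to -0.20 under scaling by total counts.

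The balance of the partner keratins differed between the states. The ratio of Krt8 to Krt18 counts was 3.13 ± 0.704 (SD, n = 3) for mESC-2i, 1.11 ± 0.0562 for mESC-ser and 0.259 ± 0.0395 for EpiLC, with ranges of 2.42 to 3.83, 1.06 to 1.17 and 0.214 to 0.288. Every mESC-2i library held more Krt8 than Krt18 counts and every EpiLC library fewer. The ratios here and in the next paragraph are of counts, with no correction for exonic length, which is 1.958 kb for Krt8 and 1.437 kb for Krt18. Per kb of exon, Krt18 was above Krt8 in mESC-ser, at 66.8 against 54.3 CPM per kb. The ratio was 12-fold lower in EpiLC than in mESC-2i and 2.77-fold lower in mESC-ser than in mESC-2i. Since the genes are counted in the same library, the ratio does not depend on the scaling between libraries.

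Summed over the 4 keratins, type II against type I counts gave ratios of 2.52 ± 0.496 for mESC-2i, 0.941 ± 0.0341 for mESC-ser and 0.348 ± 0.0499 for EpiLC. The 4 keratins together reached 56.3 ± 8.95 CPM for mESC-2i, 228 ± 8.94 CPM for mESC-ser and 83.5 ± 0.924 CPM for EpiLC. For each of these sums and ratios the states did not overlap, and the exact two-sided permutation test gave p = 0.1 for each pair of states, which is the smallest p that 3 against 3 libraries allow. The rise of the sum in EpiLC over mESC-2i, 0.58 on the log2 scale, came with a higher type I sum (62 ± 2.89 against 16 ± 1.99 CPM) and a lower type II sum (21.5 ± 2.14 against 40.2 ± 7.98 CPM), and it was 0.22 under scaling by total counts.

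**Figure D4:**
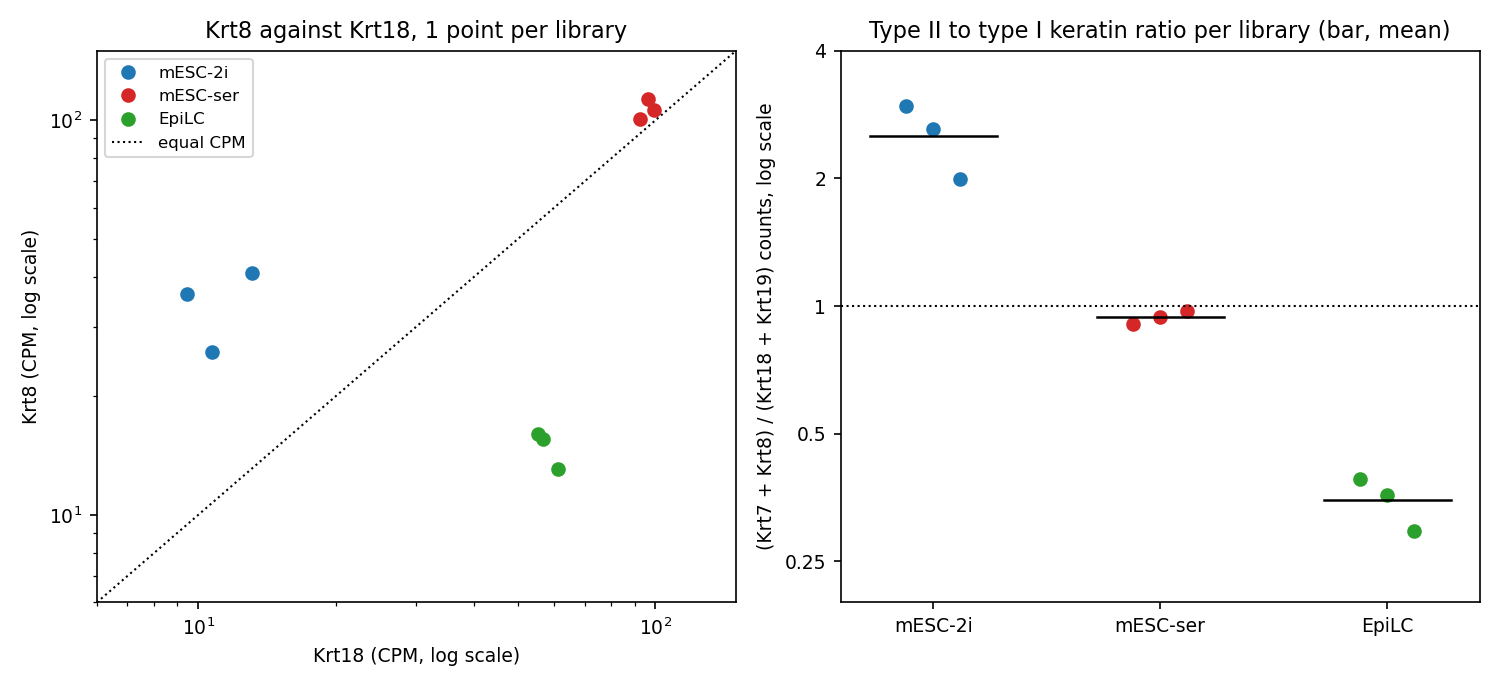
Left, Krt8 against Krt18 level in each of the 9 libraries (CPM, log scales, dotted line at equal levels). Right, ratio of type II (Krt7, Krt8) to type I (Krt18, Krt19) keratin counts per library (log scale), with bars for the mean of the 3 libraries. On the left, the mESC-2i libraries lie above the line of equal levels and the EpiLC libraries below it. On the right, the type II to type I ratios were 1.99 to 2.97 for mESC-2i and 0.294 to 0.392 for EpiLC.

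The table holds 46 other keratin genes with a symbol of Krt and a number alone, and symbols that end in a letter were not searched. Of these 46 genes, 4 passed the filter in each comparison with mESC-2i and 3 for EpiLC versus mESC-ser. They are Krt42, Krt17, Krt10 and Krt16, and Krt16 is the gene that did not pass in the last. The counts called higher and lower were 1 and 3 for mESC-ser versus mESC-2i (median log2 fold change -0.91), 2 and 2 for EpiLC versus mESC-2i (median -0.65), and 1 and 1 for EpiLC versus mESC-ser (median -0.05), where 56.2%, 69.8% and 73.3% of all genes tested were called. Krt42, a type I keratin gene, was the most abundant at 31.1 ± 4.44 CPM for mESC-2i, 13 ± 0.438 CPM for mESC-ser and 3.50 ± 0.22 CPM for EpiLC, an order of states opposite to that of its type I relative Krt18 between mESC-2i and either other state. Together the 46 genes summed to 38.5 to 47 CPM for mESC-2i, 24.1 to 26.8 CPM for mESC-ser and 18.4 to 20.8 CPM for EpiLC. Markers of stratified epithelium (Krt5, Krt14, Krt10, Trp63, Ivl) summed to 3.44 to 4.09, 3.15 to 3.62 and 4.97 to 7.54 CPM in the same order of states. Of these 5, only Krt10 passed the filter, called lower in mESC-ser versus mESC-2i (log2 -0.51, SE 0.20) and higher in EpiLC versus mESC-2i (0.70, SE 0.22) and versus mESC-ser (1.25, SE 0.20).

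Keratin filaments are tied to the membrane by plakins and share the cell with vimentin, nestin, desmin and the nuclear lamins. Of 7 such genes, 4 were called higher and 1 lower in mESC-ser versus mESC-2i (median log2 fold change 0.75), 2 higher and 3 lower in EpiLC versus mESC-2i (median -0.32), and 0 higher and 6 lower in EpiLC versus mESC-ser (median -1.03). For comparison, 56.2%, 69.8% and 73.3% of all genes tested were called. Desmoplakin, which anchors keratin filaments at desmosomes and is encoded by Dsp, was at 47.7 ± 5.59 CPM for mESC-2i, 135 ± 16.7 CPM for mESC-ser and 2.66 ± 0.284 CPM for EpiLC, the order of states of Krt8. Vimentin, the filament protein of mesenchyme, fell from 417 ± 55.8 CPM for mESC-2i to 178 ± 6.17 CPM for mESC-ser (log2 -1.28, SE 0.12) and 91.7 ± 5.64 CPM for EpiLC (log2 -2.20, SE 0.12).

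Genes of epithelial junctions and surfaces moved in both directions in every comparison. Of 32 tested, 12 were called higher and 8 lower in mESC-ser versus mESC-2i (median log2 fold change 0.04), 15 higher and 9 lower in EpiLC versus mESC-2i (median 0.41), and 13 higher and 8 lower in EpiLC versus mESC-ser (median 0.27). Over all genes tested, the shares called were 56.2%, 69.8% and 73.3%, also in both directions, so the counts of this list are not set apart from that background. Cdh1, which encodes E-cadherin, was called in none of the 3 comparisons, with log2 fold changes between -0.35 and -0.12. The splicing regulator gene Esrp1 rose from 0.826 ± 0.25 CPM for mESC-2i to 68.3 ± 5.91 CPM for mESC-ser and 85.4 ± 2.22 CPM for EpiLC. The claudin gene Cldn6 rose from 4.28 ± 1.32 to 50 ± 5.20 and 293 ± 12.9 CPM in the same order. Grhl2, which encodes a grainyhead factor of epithelia, was called higher in mESC-ser (log2 3.13, SE 0.13) and in EpiLC (log2 2.82, SE 0.13) than in mESC-2i. Aqp3, a water channel gene of the trophectoderm and other epithelia, went the other way, from 174 ± 17.2 CPM for mESC-2i to 12.3 ± 1.45 CPM for mESC-ser and 0.266 ± 0.357 CPM for EpiLC.

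Compared per kb of exon, the order of the marker genes changed between the states. In mESC-2i Elf3 led at 47.1 ± 0.581 CPM per kb, followed by Tfap2c at 17.8 ± 1.26 and Krt8 at 17.5 ± 3.93, whose ranges overlapped. Tead4 at 9.02 ± 0.842 and Krt18 at 7.71 ± 1.29 CPM per kb came next, again with overlapping ranges, and were followed by Krt19, Krt7 and Gata3 at 2.68, 0.836 and 0.329. Hand1 and Elf5 were last and overlapped.

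In mESC-ser the keratins took the upper ranks, with Krt18 at 66.8 ± 2.49, Krt8 at 54.3 ± 2.99 and Krt19 at 11.7 ± 0.862 CPM per kb. Elf3 at 9.54 ± 0.354 and Tfap2c at 9.50 ± 0.864 CPM per kb overlapped, and Tead4, Hand1, Gata3, Krt7 and Elf5 followed without overlap between neighbours. In EpiLC Krt18 stood alone at 40.2 ± 2.04 CPM per kb, above Krt8 at 7.60 ± 0.81, Elf3 at 4.51 ± 0.516, Krt19 at 2.27 ± 0.364 and Krt7 at 0.936 ± 0.087. Tead4 and Tfap2c overlapped in EpiLC, as did Hand1, Gata3 and Elf5 at the end of the order. The exonic length is that of all annotated transcripts together, and for Krt7 it is 7.049 kb, the longest of the 10.

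The genes whose log2 level over the 9 libraries was most like that of a marker gene were found by the root mean square difference of the centred values, over 13688 protein-coding genes. For Krt18 these were Cacng7 (0.18), Fbxo32 (0.224) and the epithelial factor gene Grhl2 (0.236). For Tfap2c they were Ngfr (0.303), the naive pluripotency factor gene Esrrb (0.384) and Eya1 (0.414). For Elf3 they were Gas6 (0.104), Ildr1 (0.147) and Fam198b (0.157).

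The likeness was closer for some of the other marker genes than for others. Krt8 was nearest to Cul4b (0.18), Gm13694 and Erf, Krt19 to Cenpf (0.176), Spred1 and Arhgef10, and Tead4 to Prdm1 (0.201), Lix1l and Serping1. Hand1 was nearest to Itga9 (0.378), the imprinted placental gene Peg10 (0.381) and Foxi3 (0.409), Gata3 to Gm340 (0.173), Crebbp and Ipo7, and Krt7 to Zfpl1 (0.087), Zcchc18 and Derl1. No marker gene had another marker gene among its 3 nearest genes. The measure describes 9 libraries in 3 states and says nothing of shared control.

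Markers of other cell types moved with the states as well. Primitive endoderm markers (Gata6, Gata4, Sox17, Sox7, Pdgfra, Dab2, Foxa2) summed to 20.7 to 24.3 CPM for mESC-2i, 33.4 to 34.8 CPM for mESC-ser and 7.66 to 10.4 CPM for EpiLC, the order of Gata3 and Krt8, and none of the 7 was at 0 in all libraries of a state. Dab2 was the largest part of each sum, at 11.6 ± 2.03, 18.6 ± 0.114 and 5.84 ± 0.379 CPM in this order of states. Of the primitive endoderm markers tested, 4 of 6 were called higher and 2 lower in mESC-ser versus mESC-2i, 0 of 4 higher and 3 lower in EpiLC versus mESC-2i, and 1 of 6 higher and 5 lower in EpiLC versus mESC-ser. Fibroblast markers (Col1a1, Col1a2, Col3a1, Thy1, Postn) summed to 43.6 to 50.5, 58.7 to 77.7 and 31.2 to 38.5 CPM in the same order of states. Thy1, at 29.5 ± 2.05 CPM, made up most of the EpiLC sum, against 3.05 ± 0.469 CPM for mESC-2i. Col1a1 went the other way, from 22.5 ± 3.68 CPM for mESC-2i to 1.47 ± 0.931 CPM for EpiLC, as did Col3a1, from 12 ± 1.57 to 0.181 ± 0.313 CPM. Of 4 fibroblast markers tested, 1 was called higher and 1 lower in mESC-ser versus mESC-2i, and 1 higher and 3 lower in EpiLC versus either mESC state. Early neural markers (Sox1, Pax6, Neurod1) summed to 25.4 to 29.1, 45.4 to 49.6 and 5.21 to 6.91 CPM, with 2 of 3 called higher and 1 lower in mESC-ser and 1 higher and 2 lower in EpiLC, each versus mESC-2i, and 0 higher and 3 lower in EpiLC versus mESC-ser. Of the 5 pluripotent cell markers, 0 were called higher and 2 lower in mESC-ser versus mESC-2i, 0 higher and 3 lower in EpiLC versus mESC-2i, and 1 higher and 3 lower in EpiLC versus mESC-ser. Called shares over all genes tested were 56.2%, 69.8% and 73.3% in the 3 comparisons. The part of these markers in the results above was not tested.

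Fold changes over all genes were related to exonic length, with a Spearman correlation across genes of 0.28 for mESC-ser versus mESC-2i, -0.30 for EpiLC versus mESC-2i and -0.498 for EpiLC versus mESC-ser, where genes are not independent replicates. With offsets for length and GC content, 5 marker genes moved by over 1.5-fold in EpiLC versus mESC-ser and stayed lower: Hand1 to -6.17, Elf3 to -1.60, Krt8 to -3.43, Krt18 to -1.47 and Krt19 to -2.99 on the log2 scale. In EpiLC versus mESC-2i, Krt7 was then called higher (0.56, adjusted p = 0.00907) and Krt19 lower (-0.69, adjusted p = 0.0057). Krt18 stayed higher in that comparison, at log2 1.84 instead of 2.36. The values of the related lists are from the fits without these offsets, and the part of gene length in them was not tested.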

How the data were processed

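Poly-A RNA of 9 E14 libraries was sequenced as short single-end reads (TruSeq v2). The authors trimmed reads with Trim Galore 0.6.6, aligned them to mm10 with HISAT2 2.2.1 and counted them per gene with featureCounts (Subread 2.0.1), and deposited raw counts. The annotation release, the strand setting and the handling of multiply aligned reads are not given in the sources used here. Among list genes given with values, Ccn2, Dsp, Esrp1, Grhl2, Yap1, Krt10, Tfap2a and Tead2 overlap a gene on the opposite strand by 13 to 718 bases, and Krt7 and Krt8 by 77 and 101. Of the cell type markers named, Sox17, Pdgfra, Pou5f1, Dab2, Neurod1, Krt5 and Gata6 do so by 93 to 804 bases, and Col3a1, Neurod1, Sox1 and Pdgfra overlap a gene on the same strand by 30 to 201.

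The serum columns were matched to samples by the initials of serum and LIF. Symbols, positions and lengths came from GENCODE M21 (GRCm38), which matched 36429 of 38293 identifiers (95.1%). RefSeq promoter stretches were found for 6 of the 10 genes.

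Each pair of states was fitted on its 6 libraries, which held 7187576 to 16829549 counts, with edgeR 4.0.16 (R 4.3.3): filterByExpr, TMM, the quasi-likelihood F-test and Benjamini-Hochberg adjustment over all genes tested. The SE of a log2 fold change is its size over the root of F. The fits were also run on data simulated for mESC-ser versus mESC-2i, with a far smaller share of changed genes than was called here. The outcome is not given here. No library was a duplicate of another (chi-square of 1.66 to 30.5 per degree of freedom). Same-numbered deviations from the state means correlated at 0.129 to 0.345 between mESC-2i and mESC-ser, over the limit of 0.1. These numbers were thus taken to pair the samples, from the data and not from the labels. Differently numbered deviations correlated at -0.278 to 0.146, which overlaps that range, so the pairing is uncertain. The fits given hold the state only, and the replicate block was an alternative. EpiLC (0.0202 to 0.112 with mESC-2i, 0.016 to 0.0332 with mESC-ser) were not taken as paired. Ratios with a state of 3 counts or fewer carry an exact 95% counting interval, and reads had no molecular identifiers.

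The marker genes and the lists were chosen with earlier results of these data known, and the promoter motifs and the 50-base comparison after the files were seen. Beside the marker genes, the text names at most 4 called genes per list and comparison with the largest absolute fold change and a mean of at least 1 CPM in a state, with paralogs and keratin partners, and the 3 nearest genes of each marker gene. Cdh1, Yap1, Wwtr1, Ankrd1, Tpbpa and Prl3d1 stand outside that rule and were chosen after their values were seen. Alternatives were other scalings (RLE, total counts), filters and thresholds, DESeq2 1.42.0, all 9 libraries in 1 fit, the replicate block, length and GC offsets and leaving out each replicate.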

Additional observations from a re-analysis of the deposited data

How the results depend on the processing

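The number of marker genes called was within 1.5 times the value given in all 51 alternatives. With a minimum of 10 counts in every library it was 7 instead of 8 in mESC-ser versus mESC-2i. In EpiLC versus mESC-2i that minimum left 4 instead of 6, with no value for Tfap2c and Gata3. In EpiLC versus mESC-ser it gave no value for Tfap2c, Gata3 and Hand1, all called lower in the main fit. Of the single log2 fold changes, 154 of 156 values that left out a replicate and 268 of 280 under other settings kept direction and call. With the replicate block the counts of marker genes called were 8, 6 and 9, as without it, and it changed no call. Krt7 in EpiLC versus mESC-2i reversed to -0.20 with total counts. The summed keratins moved with total counts to 0.22 from 0.58 (EpiLC versus mESC-2i) and to -1.71 from -1.45 (EpiLC versus mESC-ser), on the log2 scale. The type II to type I ratio from Krt8 and Krt18 only, an alternative chosen after seeing the data, was -3.58 instead of -2.85 in EpiLC versus mESC-2i and -2.11 instead of -1.44 in EpiLC versus mESC-ser. Leaving out a replicate gave sums of 0.46 to 0.70 and -1.48 to -1.43, and ratios of -3.01 to -2.72 and -1.54 to -1.33, in these comparisons. Krt7 in mESC-ser versus mESC-2i passed the fold threshold with total counts (-0.53), with length and GC offsets (-0.54), without mESC-2i replicate 3 (-0.52) and without mESC-ser replicate 2 (-0.56), and Krt19 in EpiLC versus mESC-2i with total counts (-0.59). A fold threshold of 1 lost Tfap2c and Tead4 in mESC-ser versus mESC-2i and Krt7 and Krt18 in EpiLC versus mESC-ser, and left 4935 of 8843 called genes in all in the former. A minimum of 10 counts in every library gave no value for Hand1, nor for Tfap2c and Gata3 in EpiLC. Low counts limit Elf5 throughout, and Gata3, Hand1 and Tfap2c in EpiLC.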
